A study of Mus musculus with 36 samples.

Results

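A set of 10 RNA-binding proteins that control alternative splicing in striated muscle was followed in whole mouse hearts from mid-gestation to old age. The genes were Ptbp1, Ptbp2, Rbfox1, Rbfox2, Rbm20, Rbm24, Mbnl1, Mbnl2, Celf1 and Celf2, taken by name from the symbol column of the array annotation, and all of their probe sets were kept. They accounted for 10 of 20701 genes and for 39 of 45101 probe sets on the array (an Affymetrix whole-genome design for the mouse), and 25 of the 39 had a mean above 5 on the log2 scale in at least 1 stage (20685 probe sets did so on the whole array). Hearts of OF1 mice, an outbred stock without any genetic change or treatment, were collected on each embryonic day from E10.5 to E19.5, from young adults of 10 weeks and from old adults labelled as 14 months of age (the methods text has 10 months). Each of the 12 stages had 3 arrays, which makes 36. Mixed-sex material was used for every array of E10.5 and E11.5, and at each later stage the arrays were labelled female, male and mixed. According to the methods, a female or male sample came from a single animal and a mixed sample held hearts of both sexes. The number of hearts in a mixed sample is not given in the sources used here, and the p-values below measure the spread between these samples.

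Most vertebrate exons that change between fetal and adult muscle are chosen by a small set of such proteins. Polypyrimidine tract-binding proteins (Ptbp1 and Ptbp2) mostly repress exons in undifferentiated cells. Rbfox proteins bind the RNA motif UGCAUG and act as enhancers or repressors depending on which side of the exon they bind. Muscleblind-like (Mbnl) and CUGBP Elav-like (Celf) proteins act on many of the same exons in opposite directions, and their balance is disturbed in myotonic dystrophy. Rbm20 represses exons of titin and of calcium-handling genes and is mutated in a form of dilated cardiomyopathy, and Rbm24 promotes muscle exons and is needed for sarcomere assembly. The array reads the 3′ ends of transcripts, so what follows concerns the RNA level of the regulators and not the splicing of their targets.

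Promoter sequence was available for Ptbp1, Ptbp2, Rbfox1, Rbm24, Mbnl1, Mbnl2, Celf1 and Celf2 (RefSeq, build GRCm38.p6). The 250 bases before an annotated transcript start are shown for the PTB pair and for Rbm24, which like Ptbp2 was lower in the young adult than at E19.5. They are also shown for the 2 annotated starts of Rbfox1, which rose. Capitals mark matches to the E-box CANNTG, the site type of basic helix-loop-helix factors. Matches to the MEF2 motif CTANNNNTAG and to TATAAA would also have been in capitals, but these 5 windows held none on either strand. In the same build, the start used for Ptbp1 and the upstream one of Rbfox1 were the outer ends of the gene records, whereas the starts for Rbm24, for Ptbp2 and the downstream one of Rbfox1 lay 198, 1259 and 1185042 bases inside them.
Ptbp1, chr10:79854182-79854431, plus strand: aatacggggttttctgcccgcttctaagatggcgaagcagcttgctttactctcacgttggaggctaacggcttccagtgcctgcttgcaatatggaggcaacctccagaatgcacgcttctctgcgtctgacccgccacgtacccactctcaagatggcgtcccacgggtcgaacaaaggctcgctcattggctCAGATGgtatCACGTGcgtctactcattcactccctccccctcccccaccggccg
Ptbp2, chr3:119783389-119783638, minus strand: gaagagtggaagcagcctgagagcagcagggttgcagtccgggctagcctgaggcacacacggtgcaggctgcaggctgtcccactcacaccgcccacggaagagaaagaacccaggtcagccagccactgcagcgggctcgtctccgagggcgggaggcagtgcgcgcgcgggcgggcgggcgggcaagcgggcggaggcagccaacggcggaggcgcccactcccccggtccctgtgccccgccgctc
Rbm24, chr13:46418050-46418299, plus strand: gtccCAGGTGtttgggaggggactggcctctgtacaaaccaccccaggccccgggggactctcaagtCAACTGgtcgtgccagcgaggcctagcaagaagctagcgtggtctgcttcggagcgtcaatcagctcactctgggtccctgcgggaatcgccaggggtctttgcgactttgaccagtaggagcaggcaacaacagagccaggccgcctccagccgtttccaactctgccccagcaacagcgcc
Rbfox1, chr16:5884543-5884792, plus strand: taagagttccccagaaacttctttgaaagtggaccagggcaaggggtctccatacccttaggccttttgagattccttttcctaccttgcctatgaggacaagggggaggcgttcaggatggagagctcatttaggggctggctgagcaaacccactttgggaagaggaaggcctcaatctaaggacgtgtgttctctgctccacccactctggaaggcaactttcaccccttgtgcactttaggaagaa
Rbfox1, chr16:7069585-7069834, plus strand: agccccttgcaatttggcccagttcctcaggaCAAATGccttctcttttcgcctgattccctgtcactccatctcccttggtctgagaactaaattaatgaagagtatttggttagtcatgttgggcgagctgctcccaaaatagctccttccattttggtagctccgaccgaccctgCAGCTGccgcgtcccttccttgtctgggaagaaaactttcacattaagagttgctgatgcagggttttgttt
The Ptbp2 window held 23 CG dinucleotides and the Ptbp1 window 17, against 12 for Rbm24 and 2 and 6 for the Rbfox1 starts, with a median of 6 over 32851 promoters. Ptbp1, Rbm24 and the downstream Rbfox1 start had 2 E-box matches each and the other windows none. Windows of this length held an E-box in 66.2% of all promoters, the MEF2 motif in 3.20% and TATAAA in 12.4%, so these matches describe the sequence only.

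Values below are log2 RMA signals of the probe set with the highest mean of each gene unless another is named. A gene was counted as changed when its adjusted p was under 0.05 in a linear model of the 12 stage means (limma, Benjamini-Hochberg adjustment over 45101 probe sets). The level of 1 gene was not set against that of another, because probe sets differ in their response.

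Between E10.5 and the young adult, 9 of the 10 regulators changed. Of these, 6 were higher at E10.5, namely Ptbp2, Rbm24, Ptbp1, Celf2, Celf1 and Rbfox2, and 3 were lower, namely Rbfox1, Mbnl1 and Mbnl2. On the whole array 28.5% of genes were called higher at E10.5 and 38.6% lower, so a gene on this list was called in a comparison in which most genes were. The median log2 difference was 1.04 over the 10 regulators and -0.21 over all genes, but 0.17 over all 39 probe sets (-0.19 over all probe sets of the array). Under the stricter limits of the study (adjusted p under 1e-05, a difference above 2 on the log2 scale and a stage mean above 5), Ptbp2, Rbm24 and Rbfox1 passed, against 7.78% of all genes. Rbm20 did not pass, with a difference of 0.23 (95% interval -0.22 to 0.68, adjusted p = 0.36).

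**Figure D1:**
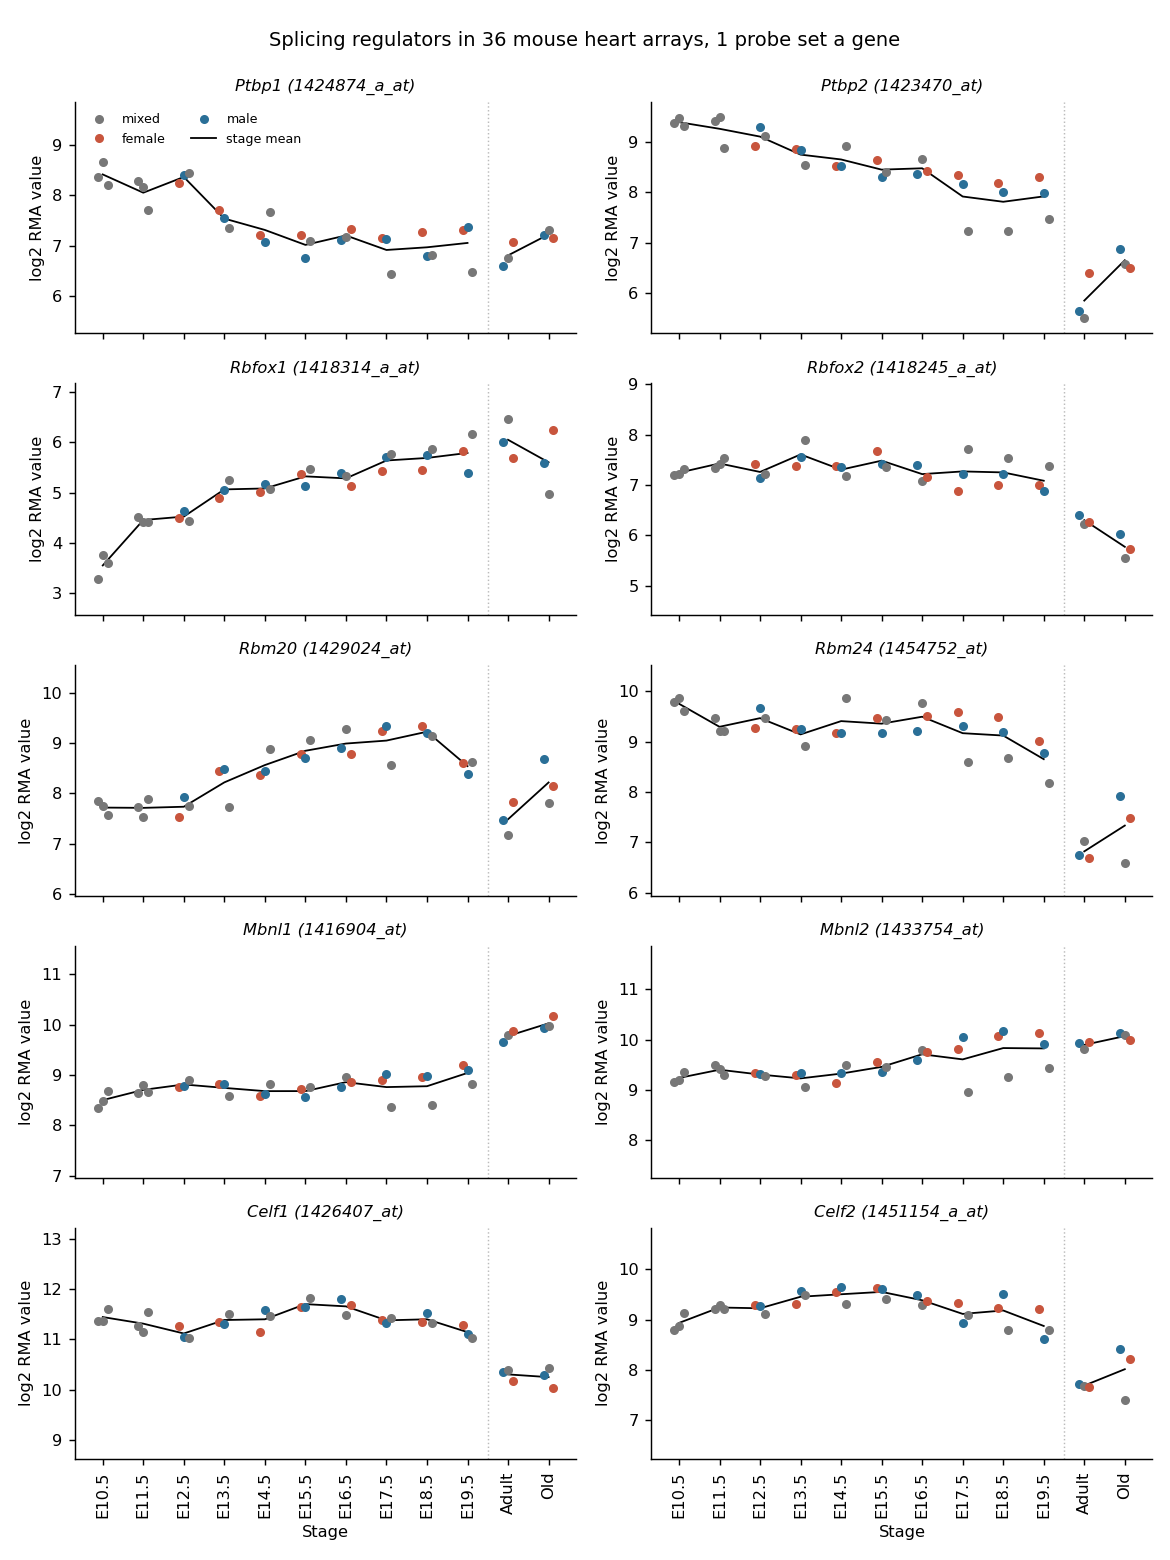
Log2 RMA value of each regulator (vertical axis, 1 panel a gene, all panels spanning the same range) at 12 stages (horizontal axis). Each point is 1 array coloured by its sex label, and lines join stage means within the embryo and within the adult. Ptbp2 and Rbm24 drop to their lowest level in the young adult, Rbfox1 climbs from 3.56 to 6.05, and Rbm20 peaks at E18.5.

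Ptbp2, the PTB paralog best known from developing neurons, showed the largest difference of the 10. The 3 arrays at E10.5 read 9.38, 9.47 and 9.33, those at E19.5 read 8.31, 7.98 and 7.47, and those of the young adult 5.65, 5.51 and 6.40. The 3 stages did not overlap. E10.5 exceeded the young adult by 3.54 (SE 0.25, 11.7-fold, adjusted p = 3.6e-13). Part of the difference fell inside gestation, where E10.5 exceeded E19.5 by 1.47 (adjusted p = 2.3e-05) with a slope of -0.18 a day (adjusted p = 5.3e-10), and part after it, where E19.5 exceeded the young adult by 2.07 (4.20-fold, adjusted p = 1.3e-07). Of the 9 daily steps between embryonic means 7 went down. The only other Ptbp2 probe set, 1423471_at, was also higher at E10.5 than in the young adult, by 1.14 (adjusted p = 1.2e-05), and at E19.5, by 0.75 (adjusted p = 0.0042).

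Ptbp1, the widely expressed paralog, fell inside gestation on the probe set with the highest mean. Its arrays read 8.36, 8.67 and 8.21 at E10.5, 8.24, 8.41 and 8.45 at E12.5 and 7.71, 7.54 and 7.36 at E13.5. The E12.5 and E13.5 arrays did not overlap, and the stage means from E14.5 to E19.5 lay between 6.91 and 7.31. E10.5 exceeded E19.5 by 1.36 (SE 0.21, adjusted p = 6.0e-06), whereas E19.5 and the young adult differed by 0.25 (95% interval -0.19 to 0.68, adjusted p = 0.42). Against the young adult, Ptbp1 was higher at 4 of the 10 embryonic stages, E10.5 to E13.5, and Ptbp2 at all 10. The change from E19.5 to the young adult was larger in Ptbp2 than in Ptbp1 by 1.82 (SE 0.17, adjusted p = 4.7e-10), while their changes from E10.5 to E19.5 differed by 0.11 (SE 0.17, adjusted p = 0.59). A further expressed Ptbp1 probe set, 1458284_at, ran the other way. It rose over gestation (0.08 a day, adjusted p = 0.00012), with -0.52 between E10.5 and E19.5 (adjusted p = 0.061), and was lower at E10.5 than in the young adult (difference -0.77, adjusted p = 0.0046). On the mean of both probe sets, E10.5 exceeded E19.5 and the young adult by 0.42 each (adjusted p = 0.015 and 0.0098).

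Rbfox1, the muscle and neuron member of its family, rose almost without interruption. Its values were 3.28, 3.77 and 3.61 at E10.5, 5.82, 5.39 and 6.16 at E19.5 and 6.0, 6.47 and 5.68 in the young adult. All E10.5 arrays lay below the limit of 5 and below every array of any other stage, the lowest of which was above 4. The E10.5 value was lower than that of the young adult (difference -2.5, SE 0.22, adjusted p = 3.2e-11) and lower than that of E19.5 (difference -2.24, adjusted p = 1.5e-09). The slope was 0.21 a day (adjusted p = 1.1e-11), 8 of 9 daily steps went up, and E19.5 against the young adult did not pass (difference -0.26, 95% interval -0.71 to 0.19). Because the E10.5 level was under the limit for an expressed probe set, where RMA compresses differences, no fold is given and the differences from E10.5 may be too small. The other 3 Rbfox1 probe sets were all lower at E10.5 than at E19.5, with differences of -0.48 to -1.08, although 2 of them never had a mean above 5.

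Rbfox2, present in most tissues, had another course. Its stage means stayed between 7.09 and 7.61 over gestation, and its arrays read 6.41, 6.23 and 6.27 in the young adult and 6.04, 5.56 and 5.73 in old hearts. Every embryonic array lay above every adult array. E19.5 exceeded the young adult by 0.78 (SE 0.17, adjusted p = 0.00082), E10.5 exceeded it by 0.94 (adjusted p = 3.2e-05), and the slope over the embryonic days did not pass (-0.02 a day, adjusted p = 0.17). Between E10.5 and the young adult the changes of the paralogs differed (Rbfox1 minus Rbfox2 -3.44 on the log2 scale, SE 0.21, adjusted p = 8.0e-15), a size that again rests on the low E10.5 level of Rbfox1. The 3 other Rbfox2 probe sets had no stage mean above 5.

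Rbm20, which represses titin exons, rose during gestation and was low again in the young adult. The single probe set for it read 7.85, 7.74 and 7.56 at E10.5, 9.34, 9.20 and 9.14 at E18.5, 8.61, 8.39 and 8.63 at E19.5 and 7.46, 7.17 and 7.83 in the young adult. The E18.5 arrays lay above all of those at E10.5, E19.5 and the young adult, and the E10.5 and young adult arrays overlapped. The embryonic slope was 0.16 a day (SE 0.02, adjusted p = 1.9e-07), E18.5 exceeded the young adult by 1.74 (3.34-fold, adjusted p = 1.4e-07), and E19.5 did so by 1.06 (SE 0.22, adjusted p = 0.00037). With the 12 stages ordered by their means, the arrays of each neighbouring pair overlapped in all 11 pairs.

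Rbm24, the sarcomere-related regulator, kept a high level through gestation and fell after it. It read 9.79, 9.86 and 9.60 at E10.5, 9.01, 8.77 and 8.17 at E19.5, 6.75, 7.03 and 6.68 in the young adult and 7.92, 6.59 and 7.49 in old hearts. All embryonic arrays lay above all adult ones. E10.5 exceeded the young adult by 2.93 (SE 0.27, 7.64-fold, adjusted p = 7.5e-11), and E19.5 by 1.83 (3.56-fold, adjusted p = 2.5e-06). Within gestation the probe sets of this gene disagreed. E10.5 exceeded E19.5 by 1.10 on the probe set with the highest mean (adjusted p = 0.0013), but 1456180_at was lower at E10.5 (7.17, 7.28 and 7.47) than at E19.5 (8.73, 8.55 and 8.84), a difference of -1.40 (adjusted p = 5.2e-09), and 1456491_at was lower by more, with a difference of -1.95 (adjusted p = 7.6e-07). The fall after E19.5 was seen on 3 of the 4 expressed probe sets, with E19.5 above the young adult by 1.29 on 1456180_at and by 2.15 on 1458624_at, and with 0.59 on 1456491_at (adjusted p = 0.10). With the mean of the 4 expressed probe sets in place of 1, Rbm24 was lower at E10.5 than at E19.5 (difference -0.54, adjusted p = 0.0041), so its direction inside gestation depends on the probe set. Slopes on the hybridization control level described below were -0.85 on the probe set with the highest mean (adjusted p = 9.0e-06 by limma) and 0.09 on 1456180_at (adjusted p = 0.52). On 1456491_at the slope was 0.70 (adjusted p = 0.00084), and the part of these slopes was not tested. On the probe sets with the highest mean, the changes of Rbm20 and Rbm24 differed by -1.92 between E10.5 and E19.5 (SE 0.22, adjusted p = 2.0e-08). Between E19.5 and the young adult they differed by -0.78 (adjusted p = 0.0062). On the mean of the expressed probe sets, E10.5 minus E19.5 was -0.54 for Rbm24 and -0.82 for Rbm20, and that difference was not tested.

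**Figure D2:**
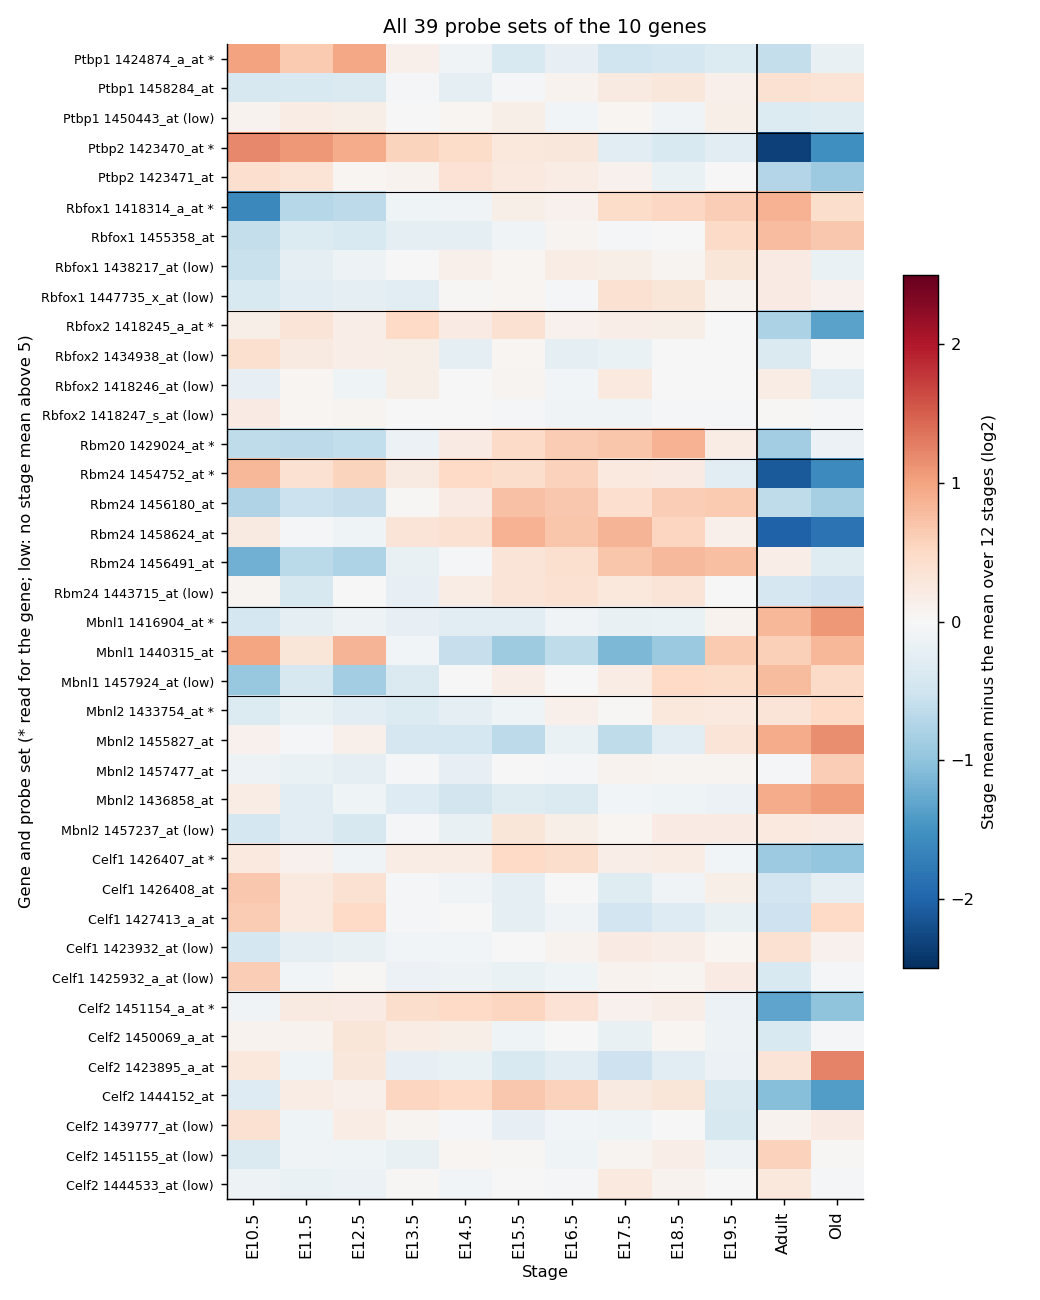
Stage means of all 39 probe sets (rows, grouped by gene, with the probe set used for the gene marked by an asterisk) at 12 stages (columns), each as the difference from its own mean over the stages on the log2 scale (colour). Both Ptbp2 probe sets and all 4 of Rbfox1 run the same way, while those of Ptbp1, Rbm24, Mbnl1 and Mbnl2 do not all do so inside gestation.

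Mbnl1, whose protein favours adult exon choice, was lower in the embryo than in the adult. Its arrays read 8.34, 8.48 and 8.68 at E10.5, 9.20, 9.09 and 8.82 at E19.5 and 9.66, 9.78 and 9.88 in the young adult. The stages did not overlap, and all 10 embryonic stages were below the young adult with differences of -1.27 to -0.73. E10.5 was lower than the young adult (difference -1.27, SE 0.15, adjusted p = 2.7e-08) and E19.5 was lower too (difference -0.73, adjusted p = 0.00042). A further expressed Mbnl1 probe set, 1440315_at, did not follow this course, with a difference of 0.39 between E10.5 and the young adult (adjusted p = 0.33). It was dim in later arrays, with means of 3.83 over the male and 4.21 over the female arrays from E13.5 on. These means leave out E10.5 to E12.5 and all mixed arrays, and at least 1 stage mean was above 5. Its slope on the hybridization control level described below was the largest in size of the 39 (-0.96, adjusted p = 0.00044 by limma). On the Mbnl1 probe set with the highest mean that slope was -0.32 (adjusted p = 0.012 by limma), and the part of either slope was not tested. On the mean of both probe sets none of the 3 differences between these stages passed. The values were -0.44 between E10.5 and the young adult (adjusted p = 0.079), -0.34 between E19.5 and the young adult (adjusted p = 0.27) and -0.10 between E10.5 and E19.5 (adjusted p = 0.71). The slope over the embryonic days was then negative, opposite in sign to that of the probe set with the highest mean.

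Mbnl2 differed before birth on its probe set with the highest mean, which read 9.15, 9.21 and 9.36 at E10.5, 10.13, 9.90 and 9.44 at E19.5 and 9.93, 9.81 and 9.95 in the young adult. E10.5 lay below both other stages, which overlapped. The differences were -0.66 against the young adult (SE 0.21, adjusted p = 0.0070) and -0.59 against E19.5 (adjusted p = 0.021), and the slope was 0.07 a day (adjusted p = 0.00053). Leaving out 1 array at a time gave adjusted p of 0.0069 to 0.11 for the difference from E19.5. The call was lost without E10.5 array 1 or 2 or E19.5 array 1 or 2. On 1436858_at, however, E19.5 was lower than the young adult (difference -1.07, adjusted p = 0.00022), where the probe set with the highest mean gave -0.07 (95% interval -0.49 to 0.35). The probe set 1436858_at was dim, with means of 4.69 over the male and 4.75 over the female arrays from E13.5 on. Of the 39 it alone was called by limma for a slope on the 3′ minus 5′ control difference described below (-0.48, adjusted p = 0.026). The mean of the 4 expressed probe sets placed the difference after E19.5 instead, with -0.16 between E10.5 and E19.5 (adjusted p = 0.34), a slope of 0.02 a day (adjusted p = 0.17) and -0.41 between E19.5 and the young adult (adjusted p = 0.027), so the timing depends on the probe set. On the probe sets with the highest mean, the Mbnl paralogs differed in their change from E19.5 to the young adult by -0.66 (SE 0.13, adjusted p = 0.00013). On the mean of the expressed probe sets these changes were -0.34 for Mbnl1 and -0.41 for Mbnl2, and their difference was not tested.

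Celf1 and Celf2, which oppose the Mbnl proteins on shared exons, were high through gestation and lower in the adult. Celf1 read 11.37, 11.35 and 11.60 at E10.5, 11.63, 11.65 and 11.81 at E15.5, 11.29, 11.11 and 11.02 at E19.5 and 10.35, 10.39 and 10.17 in the young adult. Celf2 read 8.79, 8.88 and 9.13, then 9.63, 9.60 and 9.42, then 9.21, 8.62 and 8.80, and 7.72, 7.68 and 7.66 at the same stages. Both had their highest mean at E15.5, and for both genes all embryonic arrays lay above all arrays of the adult stages. E19.5 exceeded the young adult by 0.84 for Celf1 (SE 0.13, adjusted p = 1.1e-05) and by 1.18 for Celf2 (SE 0.19, adjusted p = 9.5e-06), and these changes differed by -0.34 (SE 0.21, adjusted p = 0.23). Neither had a linear trend over gestation on these probe sets, and E10.5 minus E19.5 was 0.30 for Celf1 (95% interval 0.02 to 0.57, adjusted p = 0.068) and 0.06 for Celf2 (95% interval -0.32 to 0.44). On the mean of the expressed probe sets both slopes passed and were negative (-0.0542 a day for Celf1, adjusted p = 0.0011, and -0.0236 for Celf2, adjusted p = 0.048), and Celf1 at E10.5 exceeded E19.5 by 0.55 (adjusted p = 0.011). Slopes of either sign passed elsewhere, at 0.0382 for Celf1 with median centring (adjusted p = 0.023), and for Celf2 at -0.0417 with the 3′ minus 5′ control covariate described below (adjusted p = 0.016) and 0.0633 with the title prefix as a term (adjusted p = 0.038). The Celf2 probe set 1423895_a_at stood apart, with -0.05 between E10.5 and the young adult (adjusted p = 0.87).

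Split at E19.5, some regulators passed in a single interval and others in both. The changes in the intervals were not tested against each other. Between E10.5 and E19.5, 7 differed, with Ptbp1, Ptbp2 and Rbm24 higher at E10.5 (background 23.6% of genes) and Rbfox1, Rbm20, Mbnl1 and Mbnl2 lower (26.2%), and Rbfox1 passed the strict limits (2.52%). Another 7 differed between E19.5 and the young adult, with Ptbp2, Rbm24, Celf2, Rbm20, Celf1 and Rbfox2 higher at E19.5 (17.0% of genes) and Mbnl1 lower (14.7%), and Ptbp2 passed the strict limits (1.81%). Ptbp2, Rbm24, Rbm20 and Mbnl1 were counted in both, and Rbm20 with opposite signs. The comparisons share the E19.5 arrays. With the mean of the expressed probe sets the later count was also 7, but Mbnl1 was lost and Mbnl2 gained. The earlier count was then 6, with Mbnl1 and Mbnl2 lost, Celf1 gained and Rbm24 lower instead of higher at E10.5. Mbnl1 was thus counted in neither interval. On the probe sets with the highest mean, 7 regulators had a linear trend over the 30 embryonic arrays, 4 rising (43.9% of genes) and 3 falling (27.3%). Over the 39 probe sets, 15 were higher and 15 lower at E10.5 than in the young adult (background 27.1% and 35.9% of probe sets), 7 and 12 than at E19.5 (21.8% and 23.7%), and 13 were higher and 3 lower at E19.5 than in the young adult (15.5% and 13.6%).

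**Figure D3:**
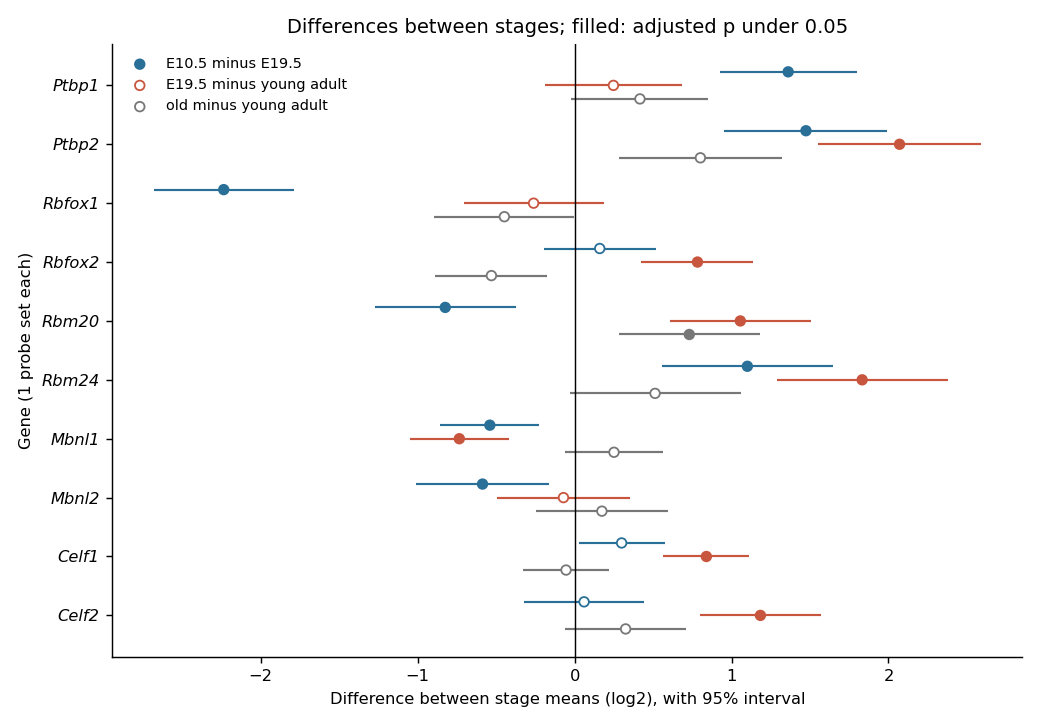
Difference between stage means on the log2 scale (horizontal axis) for each regulator (vertical axis), with 95% intervals of the linear model. Filled points had an adjusted p under 0.05. On the probe sets plotted, Rbfox1, Ptbp1 and Mbnl2 passed between E10.5 and E19.5 and not afterwards, and Celf1, Celf2 and Rbfox2 between E19.5 and the young adult and not before.

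Between old and young adult hearts 1 of the 10 regulators passed. Rbm20 was higher in old hearts (8.69, 7.81 and 8.15) than in young ones (7.46, 7.17 and 7.83) by 0.73 (SE 0.22, adjusted p = 0.039), and the arrays overlapped. On the whole array 4.46% of genes were called higher in old hearts and 3.13% lower. The Rbm20 call was lost without young adult arrays 1 or 2 or old arrays 1 or 3 (adjusted p 0.056 to 0.24) and when the 6 arrays were fitted alone (adjusted p = 0.25). It was also lost after quantile renormalization (0.53, adjusted p = 0.067), with median centring (0.59, adjusted p = 0.052) and with the hybridization control level as a covariate (0.30, adjusted p = 0.46), and after quantile renormalization the 1 gene called was Ptbp2 instead (adjusted p = 0.044). Ptbp2 in old hearts exceeded the young adult by 0.80 (95% interval 0.28 to 1.32, adjusted p = 0.051) and Rbfox2 was at -0.53 (95% interval -0.89 to -0.17, adjusted p = 0.061), both without overlap between the arrays. Of all 39 probe sets, 4 were higher in old hearts (3.83% on the array) and 1 lower (3.13%). Besides that of Rbm20 the higher ones were 1427413_a_at of Celf1 by 1.01 (adjusted p = 0.030), 1423895_a_at of Celf2 by 0.92 (adjusted p = 0.041) and 1457477_at of Mbnl2 by 0.64 (adjusted p = 0.0054), while the probe sets with the highest mean of these genes gave -0.05, 0.33 and 0.17. The lower one was 1451155_at of Celf2 (difference -0.54, adjusted p = 0.023), which lay below 5 at every stage. Cell type markers moved between the same groups. Of 4 smooth muscle markers 3 were lower in old hearts, with a mean level of 7.65 against 8.62, and of 5 endothelial markers 2 were higher, with 8.16 against 7.39, and the part of these shifts was not tested.

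No regulator passed the test between male and female hearts in the 9 stages from E13.5 on. The female and male arrays of E12.5 were left out, as in the methods of the study. Male minus female ranged from -0.21 for Ptbp1 to 0.12 for Rbfox2, with a lowest adjusted p of 0.59 over the 10 genes by limma, and 1 gene, Ptbp1, was at an unadjusted p under 0.05 (0.023, lower in the male array in 7 of 9 stages). On the whole array 22 probe sets were called (0.0488%).

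The control probe sets of the array moved with stage. The level of the hybridization controls, the bioB, bioC, bioD and cre transcripts added in fixed amount, averaged 9.90 at E10.5, 11.16 at E19.5, 12.17 in the young adult and 11.37 in old hearts. Within stages, 37.9% of all probe sets were called for a slope on this level, and so were 7 of the 10 regulators, 6 of them with a negative slope. The mixed-sex arrays of E17.5, E18.5 and E19.5 had the highest control level of their stage (12.01, 11.56 and 11.39) and the lowest value of Ptbp2 (7.23, 7.24 and 7.47), of Rbm24 (8.59, 8.68 and 8.17) and of Mbnl2 (8.95, 9.25 and 9.44). With the control level as a covariate, E10.5 minus young adult was 0.33 for Ptbp1 (adjusted p = 0.54), -1.0 for Rbm20 (adjusted p = 0.033, opposite in sign to the value above) and 1.01 for Rbm24, and E10.5 minus E19.5 was 0.03 for Rbm24 (adjusted p = 0.96) and 0.54 for Ptbp2 (adjusted p = 0.14). E19.5 minus young adult was then 0.51 for Rbm20 (adjusted p = 0.083) and 1.32 for Ptbp2, and the E10.5 to young adult difference of Rbfox1 was -2.16 and that of Ptbp2 1.87. Other values grew, with E10.5 minus young adult at 2.0 for Rbfox2, -2.01 for Mbnl1 and -1.69 for Mbnl2, and Rbfox2 then also passed between E10.5 and E19.5 (0.74, adjusted p = 0.0037) and for a slope (-0.0861 a day, adjusted p = 4.4e-05). Because stage and control level rise together, their contributions cannot be told apart from these arrays.

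The difference between the 3′ and 5′ control probe sets of Gapdh was used as a measure of RNA quality and of how far labelling ran along the transcript. It lay between 1.39 and 2.63 in adult and old hearts and between 2.19 and 5.07 in embryos. Among embryos it was under 3 in arrays 1 and 2 of E10.5, in the male array of E12.5 and in the mixed-sex array of E17.5. The mean was 2.80 at E10.5, 3.94 at E19.5, 1.84 in the young adult and 2.32 in old hearts. This measure thus moved with stage, and their contributions to differences between stages cannot be told apart. Slopes within stages rest on the spread there (SD 0.08 at E13.5 to 1.00 at E10.5) and do not cover that shift. Only 0.455% of probe sets had a slope on the mean of the Gapdh and Actb differences within stages, and among the 39 only 1436858_at of Mbnl2. With that measure as a covariate the E10.5 to E19.5 differences of Mbnl1 and Mbnl2 were -0.33 (adjusted p = 0.17) and -0.27 (adjusted p = 0.39). Centring each array on the median of its expressed probe sets moved every E10.5 minus young adult value by -0.53 and every E10.5 minus E19.5 value by -0.34, after which Rbfox2 at E10.5 was above the young adult by 0.42 (adjusted p = 0.074). Arrays up to the mixed and male ones of E16.5 lack the prefix that later sample titles carry. With this prefix as a term Mbnl1, Mbnl2, Rbm20 and Rbm24 were no longer called between E10.5 and E19.5 (adjusted p 0.055 to 0.35). Their differences were then -0.52, -0.53, -1.12 and 1.12, against -0.54, -0.59, -0.82 and 1.10 without the term. Only at E16.5 did the prefix differ within a stage, so in the stage model its term rests on the 3 arrays there. Elsewhere prefix and stage cannot be told apart.

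**Figure D4:**
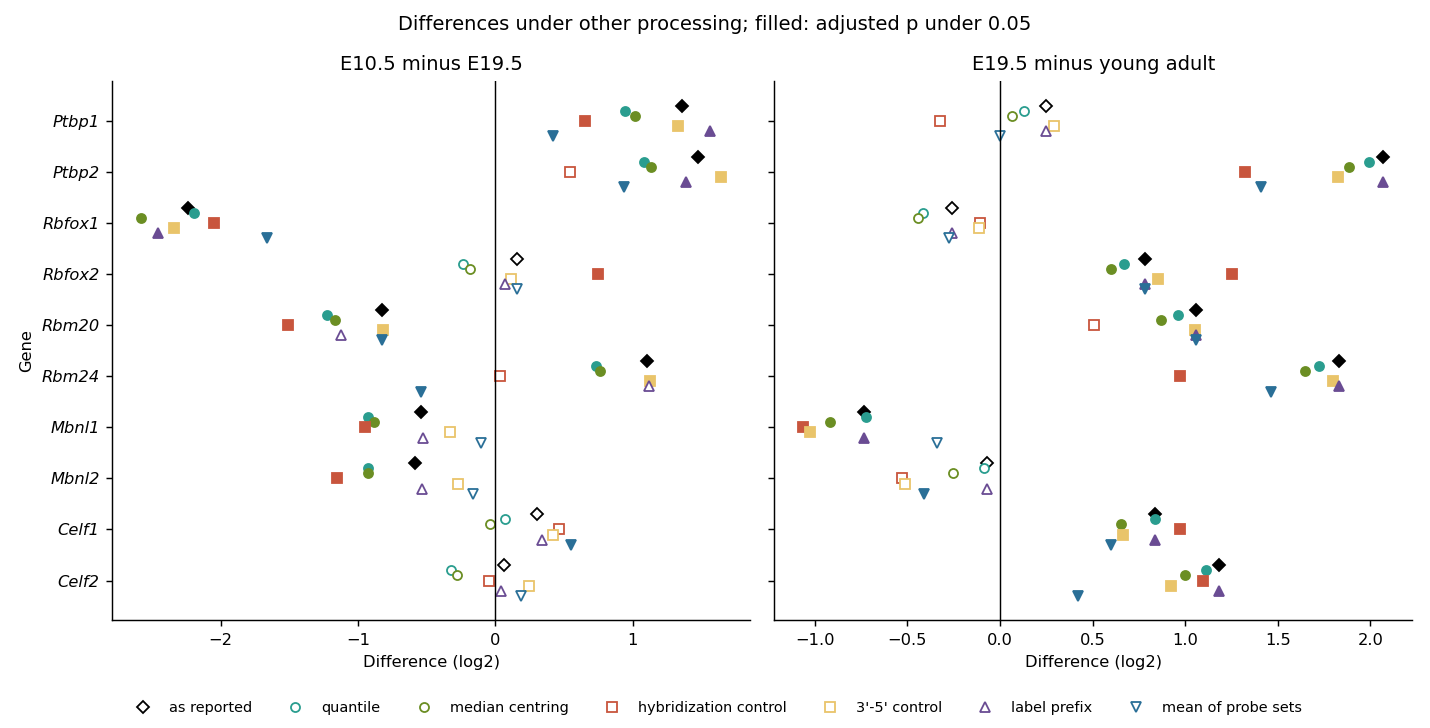
Difference on the log2 scale (horizontal axis) of each regulator (vertical axis) between E10.5 and E19.5 (left) and between E19.5 and the young adult (right), as reported and under 6 other ways of processing. Filled symbols had an adjusted p under 0.05. Rbfox1 keeps a difference below -1.6 on the left, while Rbm24 ranges from 1.12 to -0.54, and on the right Ptbp2 stays above 1.3.

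Levels of cell type markers also changed with stage, and in whole hearts fewer cells of a type and less RNA per cell cannot be told apart. The 5 cardiomyocyte markers used, of which Ryr2, Tnnt2 and Ttn are also splicing targets listed below, were all above 5 at every stage, with a mean level that was 10.90 in the E10.5 heart, 11.56 in that of E19.5 and 11.08 in the young adult. The 4 proliferation markers had a mean level of 8.22, 6.88 and 4.62 at these stages, the 4 macrophage markers 3.96, 5.53 and 7.08, and the 5 erythroid markers 9.54, 3.85 and 3.88. The 6 fibroblast markers stood at 8.55, 9.93 and 9.07, the 5 endothelial markers at 6.41, 6.65 and 7.39 and the 4 smooth muscle markers at 8.09, 7.51 and 8.62. In old hearts the cardiomyocyte, proliferation, macrophage, erythroid and fibroblast levels were 11.25, 4.38, 7.05, 3.96 and 8.69. Of the 8 neuron and glia markers 2 or 3 were above 5, with a mean level of 4.16 to 4.48 over the stages, and of the 7 skeletal muscle markers at most 1. The extract text of the labels speaks of liver, and the 4 liver markers were below 5 at all 12 stages. The part of these shifts in the results above was not tested.

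**Figure D5:**
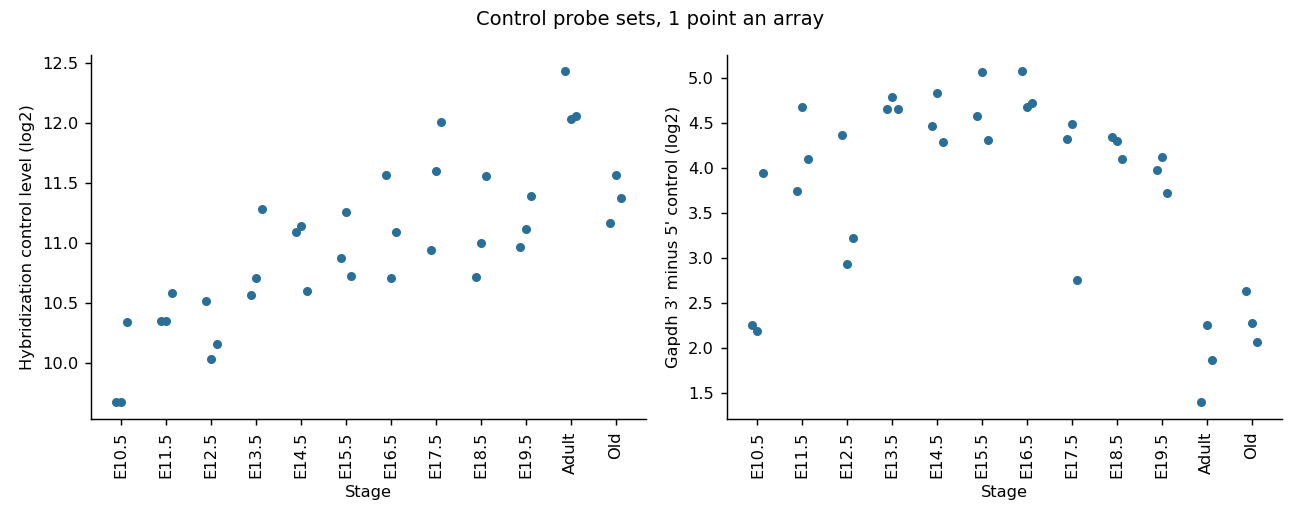
Mean level of the 18 hybridization control probe sets (left) and difference between the 3′ and 5′ Gapdh control probe sets (right), both on the log2 scale, for each array (point) by stage (horizontal axis). The control level rises from 9.68 in E10.5 arrays to 12.43 in a young adult array, and the Gapdh difference is lowest in adult and old hearts.

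Among 8 close relatives of the regulators, 3 had a stage mean above 5. Mbnl3, the muscleblind-like protein of undifferentiated cells, averaged 6.72 ± 0.26 (SD, n = 3) at E10.5, with 5.36 ± 0.31 at E19.5 and 2.75 ± 0.25 in the young adult. Its direction was opposite to that of Mbnl1, and since the young adult level lay below 5 no size is given. Ptbp3 was 7.01 ± 0.46, 6.82 ± 0.39 and 8.26 ± 0.21, and its E19.5 value was below the young adult (difference -1.44), against the direction of Ptbp2. Rbm38, the closest relative of Rbm24, was higher at E19.5 than in the young adult by 0.44. In all, 2 of 8 relatives were higher and 4 lower at E10.5 than in the young adult, near the 28.5% and 38.6% of all genes, with a median of -0.48. Celf3, Celf4, Celf5, Celf6 and Rbfox3, known mainly from the nervous system, had no stage mean above 5.

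Of 17 further splicing factors, 16 were on the array (Raver2 was not used here) and 13 had a stage mean above 5. At E10.5, 10 of 16 were higher than in the young adult (28.5% of all genes) and 2 lower (38.6%), with a median difference of 1.12. The largest was Srsf10, a splicing repressor of the SR family, with E10.5 at 9.28 ± 0.08, E19.5 at 7.46 ± 0.28 and the young adult at 5.73 ± 0.14 (difference 3.55). Hnrnpl was higher at E10.5 by 2.78, Srsf1 by 2.12 and Srsf2 by 1.55. Nova1 was also higher at E10.5 and Nova2 lower, each with 1 of the stages compared below 5. Srpk3, a muscle kinase of SR proteins, was lower at E10.5 than at E19.5 (difference -1.18) and higher at E19.5 than in the young adult by 0.90. Qk (quaking) was 11.25 ± 0.18 at E10.5 and 11.33 ± 0.15 at E19.5 and exceeded the young adult by 1.13 at E19.5. Between E19.5 and the young adult 9 of these factors were higher (17.0% of all genes) and 1 lower (14.7%), and between old and young adults 0 of 16 were called by limma, with 5 at an unadjusted p under 0.05.

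Of 22 genes whose transcripts are known splicing targets, 18 had a stage mean above 5. Between E10.5 and E19.5, 5 were higher at E10.5 (23.6% of all genes) and 10 lower (26.2%), with a median of -0.38, and between E19.5 and the young adult 9 were higher at E19.5 (17.0%) and 2 lower (14.7%), with a median of 0.34. Trdn, encoding triadin of the calcium release complex, was 9.30 ± 0.28 at E10.5 and 11.26 ± 0.37 at E19.5. Ttn, the best known Rbm20 target, was lower at E10.5 than at E19.5 (difference -0.68) and differed by 0.12 between E19.5 and the young adult. Ldb3 (the Z-disc protein cypher) exceeded the young adult by 2.04 at E19.5, and Dmd (dystrophin) by 2.60, to a young adult level just under 5, and Dmd had been lower at E10.5 (5.90 ± 0.13) than at E19.5 (7.58 ± 0.13). Actn1 and Tpm1 were higher at E10.5 than at E19.5 by 0.74 and 0.89. These are levels of the 3′ end of each gene and say nothing of its isoforms.

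The course over the 12 stage means was compared with that of 11239 other expressed genes. Those most like Ptbp2 were Hnrnpab (Pearson r = 0.996), Hnrnpd (0.995) and Zwint (0.994). Rbm24 was nearest to Heatr5b, Nhsl1 and Prc1 (0.992, 0.992 and 0.991), Rbfox1 to Vps39, Mxd4 and Ssc5d (0.990, 0.990 and 0.988) and Rbm20 to Rufy1, Gramd4 and Uqcrb (0.968, 0.961 and 0.959). Mbnl1 was nearest to Rarres2, Cd200 and Ptprb (0.992, 0.989 and 0.988) and Mbnl2 to Cavin4, Tmem182 and S100a10 (0.970, 0.969 and 0.968). Ptbp1 followed Med14, Usp22 and Clint1, Rbfox2 followed Smarcd3, Pou2f1 and Atp1b1, Celf1 followed 9430064K01Rik, Ppp1r3d and Snhg3, and Celf2 followed Spin1, Dixdc1 and Daam1, with r from 0.979 to 0.994. Among the regulators themselves the courses of Rbm24 and Ptbp2 (r = 0.933) and of Celf1 and Celf2 (r = 0.932) were alike, while those of Mbnl1 and Rbfox2 (r = -0.956) and of Mbnl1 and Rbm24 (r = -0.954) were opposed. All points share the same 36 arrays, with only 12 stages, and a step between embryo and adult alone gives a high value.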

How the data were processed

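Per the labels, RNA of mouse hearts was labelled with a 3′ IVT kit and hybridized to Affymetrix mouse genome arrays. The authors deposited log2 signal values after RMA (background correction, quantile normalization and summarization), which the submitters' processing notes place in Affymetrix Expression Console with Partek 6.6, and these log2 values of 45101 probe sets were used as deposited. RMA compresses small differences of dim probe sets. Groups came from the stage labels. The stage means of all 36 arrays were fitted with limma 3.58.1 in R 4.3.3, the linear trend on the 30 embryonic arrays, and the sex difference on 9 pairs within stages, with adjustment over all probe sets. A gene was read from its probe set with the highest mean, and a stage mean above 5 counted as expressed. The number of arrays, 3 a stage, limits the precision. Paralog pairs were tested on the difference of the log2 values of their probe sets with the highest mean.

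Named genes were the 10 regulators, their relatives, further splicing factors, known targets and cell type markers, with the 3 most similar genes each by Pearson correlation over stage means. The regulators and lists were chosen with earlier results of these data known. Alternatives were other normalizations, filters, covariates, probe set rules and leaving out arrays. On simulated data for E10.5 against young adult, 6 of 67 differences of 0.5, 51 of 67 of 1 and 65 of 66 of 2 (log2) were recovered among 45101 probe sets, with 7 false calls. The simulation changed few probe sets and drew their noise independently. In the data 27.1% of probe sets were called higher and 35.9% lower, so these rates need not hold there. Myh6, Plin1 and Raver2 were not used here. Promoters were read with Python 3.11.15, and motifs were searched on both strands.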

Additional observations from a re-analysis of the deposited data

How the results depend on the processing

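The count of regulators called was 9 between E10.5 and the young adult in every fit that left out 1 array and 8 or 9 under the other alternatives, and 7 between E19.5 and the young adult in every fit without 1 array and 6 or 7 otherwise. Between E10.5 and E19.5 it was 6 to 7 without 1 array, 5 to 7 under most alternatives and 3 with the title prefix as a term. The trend count was 6 to 7 without 1 array and 5 to 7 otherwise. With the mean of the expressed probe sets it was also 7, but not of the same genes. Celf1 and Celf2 then passed as falling, Mbnl2 did not pass, and the slopes of Mbnl1 and Rbm24 reversed in sign. Under the study's limits the counts were 3, 1, 1 and, for old against young adult and the trend, 0 and 0. For old against young adult the count of 1 became 0 to 3 without 1 array, 0 with median centring, with the hybridization control level as a covariate and with the 6 arrays alone, 2 with the sex label as a replicate block and 3 with an expression filter. That block ended 2 calls, Mbnl2 between E10.5 and E19.5 (-0.42) and the Mbnl1 slope (0.02). No source says that sex labels pair arrays across stages, and deviations from the stage means correlated with a median r of 0.04 between arrays with the same label and -0.02 between arrays with different ones.

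Signs changed as follows, and the cause was not tested. E10.5 minus young adult of Rbm20 was -0.26 after quantile normalization, -0.29 after median centring, -1.0 with the hybridization covariate and -0.0685 with the title prefix. E10.5 minus E19.5 was -0.0425 for Celf1 (median centring), -0.32, -0.28 and -0.0500 for Celf2 (quantile, median centring, hybridization), -0.24 and -0.18 for Rbfox2 (quantile, median centring) and -0.54 for Rbm24 (mean of probe sets), and for Celf2 -0.0674 to 0.227 over the fits without 1 array. E19.5 minus young adult was -0.32 for Ptbp1 (hybridization) and -0.223 to 0.120 for Mbnl2 over the fits without 1 array. Old minus young adult with the hybridization covariate was 0.0486 for Celf1, -0.00867 for Mbnl1, -0.19 for Mbnl2, -0.0351 for Ptbp1 and -0.17 for Rbm24, with the mean of probe sets 0.41 for Celf1 and -0.000423 for Rbm24, and -0.143 to 0.0557 for Celf1 over the fits without 1 array. Slopes a day were -0.0243, -0.0131 and -0.0542 for Celf1 (hybridization, 3′ minus 5′ control, mean of probe sets), 0.0318, 0.0260 and 0.0633 for Celf2 (quantile, median centring, title prefix), 0.0203, 0.0142 and 0.00478 for Rbfox2 (same order), -0.0545 for Mbnl1 and 0.10 for Rbm24 (mean of probe sets), and over the fits without 1 array -0.00192 to 0.00983 for Celf1 and -0.0205 to 0.00178 for Celf2. The 3′ minus 5′ covariate was chosen after seeing the data. Of 450 values under alternatives other than leaving out an array, 377 kept their direction and side of the threshold.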
